A study of Mus musculus with 6 samples.

Results

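Pancreatic acinar genes were measured in myeloid cells sorted from the mouse pancreas after injection of PBS or of whole glucan particles (WGP). The genes came from a list of 35 symbols of acinar digestive enzymes, secretory and granule proteins, transcription factors and water channels, matched by Ensembl identifier in GENCODE vM21, and all 35 were found among the 21780 genes of the count table.

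Acinar cells form the exocrine pancreas: they make digestive enzymes, most of them as inactive precursors, store them in zymogen granules and release them into the ducts. The transcription factors Ptf1a, Rbpjl, Nr5a2 and Bhlha15 set up or maintain this program. Acinar cells do not carry CD45 or CD11b, the surface proteins used for the sort.

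C57BL/6 mice of both sexes, aged 6 to 8 weeks, were injected into the peritoneum with PBS or with WGP, a particulate beta-glucan from yeast, at a dose of 1 mg. On day 7 the pancreas was made into a cell suspension, and viable CD45+CD11b+ cells were sorted and sequenced as polyA RNA, with 3 PBS and 3 WGP libraries. The paper describes each sample as 1 animal, from a single experiment, so the p-values measure the spread between these animals, whose sex by library is not stated. Total counts per library lay between 35334645 and 43341834.

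Levels are CPM, the counts of a gene relative to the TMM-scaled total of its library, listed for replicates 1, 2 and 3 of each group, with mean ± SD (n = 3). Differences are log2 fold changes of WGP over PBS. Called genes had an edgeR quasi-likelihood adjusted p no higher than 0.05, adjusted over the 14429 genes tested, and differed by 1 log2 unit or more.

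The sorted cells carried the markers of their labels in every library. Ptprc, which encodes CD45, was at 1043, 965 and 949 CPM in the PBS libraries and at 1747, 1536 and 1547 CPM in the WGP libraries. Itgam, which encodes CD11b, was at 189, 241 and 254 CPM in the PBS libraries and at 388, 418 and 379 CPM in the WGP libraries. All 9 myeloid markers listed were counted, Lyz2 being the most abundant, and their summed level was 10601, 16533 and 17064 CPM in the PBS libraries and 24715, 23823 and 25101 CPM in the WGP libraries. All WGP libraries lay above all PBS libraries in this sum, which rested on Lyz2. Without Lyz2 the sum was 5668, 8490.2 and 8834 CPM in the PBS libraries and 8235, 8166 and 8214 CPM in the WGP libraries, so the groups overlapped, with PBS replicate 1 the lowest. Csf1r, the receptor of macrophage colony-stimulating factor, had 3367 CPM on average in PBS and 2713 CPM in WGP, and Adgre1, which encodes F4/80, had 657 and 488 CPM. Neither was called, and both were lowest in PBS replicate 1. Of the 9 markers 5, Tyrobp and Spi1 among them, had all WGP libraries above all PBS libraries, against 16.0% of all genes tested, and 1, Lyz2, was called higher, against 4.53%.

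Single libraries stood apart in markers of other cells. PBS replicate 2 had the highest acinar levels. PBS replicate 1 had the highest summed level of plasma and B cell genes, and WGP replicate 2 those of fibroblast, stellate and mesothelial genes. Transcripts of 4 Y-linked genes (Ddx3y, Eif2s3y, Kdm5d and Uty) summed to 230.3 CPM in PBS replicate 2 and 246 CPM in PBS replicate 3. PBS replicate 1 and WGP replicates 1 and 2 had 0 counts of them and WGP replicate 3 had 1. The presence of Y-linked transcripts was therefore uneven between the groups, and its part in the acinar result was not tested apart from the covariate fit given further on.

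Summed over the 35 genes, the acinar level was 3144, 7518 and 2032 CPM in the PBS libraries and 593, 862 and 536 CPM in the WGP libraries. The lowest PBS library lay 2.36-fold above the highest WGP library, so the groups did not overlap. Within groups the highest library exceeded the lowest 3.70-fold for PBS and 1.61-fold for WGP. The mean was 4231 ± 2900.1 CPM in PBS and 664 ± 174 CPM in WGP, a ratio of 6.38, with no test because the list was chosen with results known. Without PBS replicate 2 this ratio was 3.90. In bulk RNA, fewer acinar cells or less acinar RNA among the sorted cells and less RNA per cell cannot be told apart.

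Of the 35 genes 34 passed the filter of at least 10 normalized counts over the 6 libraries; Prss1, with 2 counts in all, did not. Of the 35 genes 22 were called lower in WGP, against 4.96% of all genes tested, and 0 were called higher, against 4.53%. No acinar gene reached an unadjusted p below 0.05 in the higher direction in edgeR, and 0 were called higher in DESeq2 or limma-voom. All WGP libraries lay below all PBS libraries for 25 of the 34 genes, against 16.1% of genes tested, and above them for 0, against 16.0%. The median log2 fold change was -2.61 over the 34 acinar genes tested and -0.05 over all genes tested. The median of the 34 was the same with the 4 genes at 0 in all WGP libraries (Aqp12, Tmed6, Ptf1a and Aqp8) set at their bounds. Of the 34 genes 30 also had 10 or more counts in the WGP libraries alone.

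**Figure D1:**
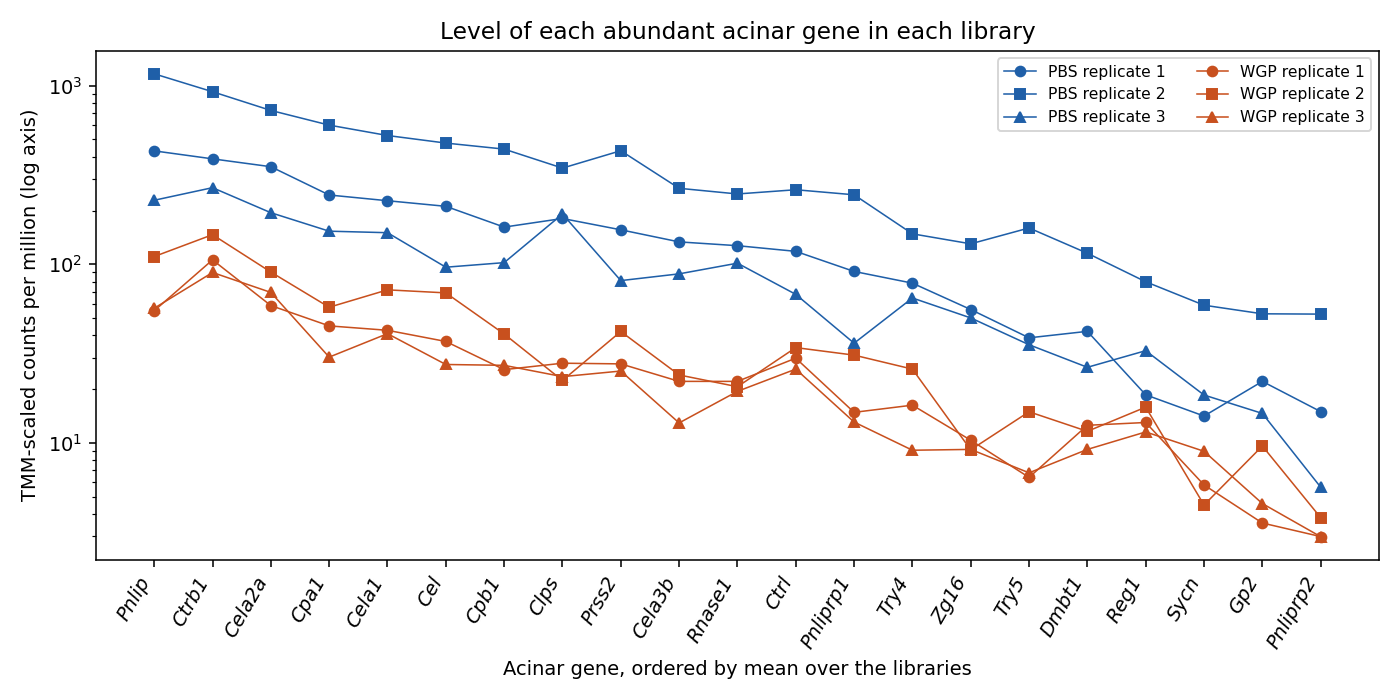
Level of each of the 21 acinar genes with a mean above 10 CPM, in each library, on a log axis. Each line is 1 library, PBS in blue and WGP in orange; PBS replicate 2 is on top for all 21 genes, and every WGP point lies below every PBS point of the same gene.

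The lipases and their cofactor digest dietary fat. Pnlip, pancreatic triglyceride lipase, had the highest mean CPM of the 35 genes in PBS, and Ctrb1 that in WGP. Among the PBS libraries, Pnlip led in replicates 1 and 2 and Ctrb1 in replicate 3. Pnlip was at 432, 1166 and 228 CPM in the PBS libraries and at 54.9, 110.5 and 56.7 CPM in the WGP libraries. It fell by a log2 fold change of -3.04 (edgeR standard error 0.54, adjusted p = 0.00371), from 609 ± 493 to 74.0 ± 31.6 CPM, and the ratio of 8.22 became 4.46 without PBS replicate 2. PBS replicate 2 was far above the other PBS libraries, and the groups did not overlap. Clps, colipase, which anchors the lipase to fat droplets, was at 180.5, 346 and 191 CPM in the PBS libraries and at 27.9, 22.4 and 23.5 CPM in the WGP libraries. The log2 fold change of -3.28 for Clps (edgeR standard error 0.26, adjusted p = 3.21e-05) was the most negative of the 21 genes with a mean above 10 CPM. Clps was the most even of these genes across the PBS libraries, and its WGP libraries lay close together. Cel, bile salt-dependent lipase, was at 211, 477 and 96.3 CPM in the PBS libraries and at 37.0, 69.2 and 27.5 CPM in the WGP libraries. Its lowest PBS library was nearer to its highest WGP library than for Pnlip, without overlap. The fall in Cel was -2.55 on the log2 scale (standard error 0.53, adjusted p = 0.0084 in edgeR).

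The lipase-related genes Pnliprp1 and Pnliprp2 lie next to Pnlip on chromosome 19. Pnliprp1 was at 91.2, 245 and 36.1 CPM in the PBS libraries and at 14.8, 31.0 and 13.1 CPM in the WGP libraries (log2 fold change -2.66, standard error 0.60, adjusted p = 0.0138 in edgeR). Pnliprp2, a lipase-related protein that also acts on galactolipids, was at 15.0, 52.6 and 5.64 CPM in the PBS libraries and at 2.99, 3.81 and 2.98 CPM in the WGP libraries (log2 fold change -2.90, standard error 0.68, adjusted p = 0.017 in edgeR). In both genes PBS replicate 3 came close to WGP replicate 2. For Pnliprp2, PBS replicate 2 stood 5.11-fold above the mean of the other PBS libraries, the widest such gap among the 21 genes.

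Chymotrypsinogens and proelastases are precursors of serine proteases. Ctrb1, chymotrypsinogen B, was at 389, 926 and 269 CPM in the PBS libraries and at 106, 146 and 90.0 CPM in the WGP libraries, from 528 ± 349.7 to 114 ± 29.1 CPM (log2 fold change -2.21, standard error 0.40, adjusted p = 0.00438 in edgeR). PBS replicate 2 was the highest library, and the groups did not overlap. Ctrl, a chymotrypsin-like protease, was at 118, 262 and 67.9 CPM in the PBS libraries and at 29.8, 34.1 and 25.9 CPM in the WGP libraries (log2 fold change -2.32, standard error 0.41, adjusted p = 0.00354 in edgeR). Ctrb1 and Ctrl both lie on chromosome 8 and had smaller falls than most of the 21 genes. Ctrc, chymotrypsin C, which helps degrade trypsinogen, was not called. Its level was 3.92 ± 3.30 CPM in PBS and 1.11 ± 0.498 CPM in WGP (adjusted p = 0.325 in edgeR), and its groups overlapped.

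Among the elastases, Cela2a was at 352, 727 and 194 CPM in the PBS libraries and at 58.7, 90.5 and 69.6 CPM in the WGP libraries (log2 fold change -2.54, standard error 0.41, adjusted p = 0.00203 in edgeR). Cela1 was at 227, 526 and 150.3 CPM in the PBS libraries and at 42.7, 71.9 and 40.9 CPM in the WGP libraries (log2 fold change -2.54, standard error 0.42, adjusted p = 0.00262 in edgeR). Both elastases followed the order of Pnlip in PBS, with replicate 2 highest and replicate 3 lowest, and their groups did not overlap. Cela3b was at 133, 266 and 88.4 CPM in the PBS libraries and at 22.1, 24.0 and 12.9 CPM in the WGP libraries (log2 fold change -3.05, standard error 0.39, adjusted p = 0.000557 in edgeR). Its fall was larger than those of Cela1 and Cela2a, a difference that was not tested.

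Carboxypeptidases remove amino acids from the ends of peptides. Cpa1, carboxypeptidase A1, was at 244, 602 and 153 CPM in the PBS libraries and at 45.2, 57.5 and 30.2 CPM in the WGP libraries (log2 fold change -2.91, standard error 0.46, adjusted p = 0.00179 in edgeR). Cpb1, carboxypeptidase B1, was at 162, 442 and 102 CPM in the PBS libraries and at 25.7, 40.7 and 27.2 CPM in the WGP libraries (log2 fold change -2.91, standard error 0.47, adjusted p = 0.00223 in edgeR). The PBS to WGP ratio was 7.52 for Cpa1 and 7.54 for Cpb1, or 4.49 and 4.23 without PBS replicate 2. Both enzymes were highest in PBS replicate 2 and in WGP replicate 2, without overlap of the groups. Rnase1, the pancreatic ribonuclease, was at 127, 248 and 101 CPM in the PBS libraries and at 22.1, 20.6 and 19.4 CPM in the WGP libraries (log2 fold change -2.94, standard error 0.31, adjusted p = 0.000155 in edgeR). Its WGP libraries lay within 3 CPM of each other, and every PBS library was well above them.

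Trypsinogens are the precursors of trypsin, which activates the other enzymes. Prss2 was at 156, 433 and 81.0 CPM in the PBS libraries and at 27.7, 42.0 and 25.2 CPM in the WGP libraries (log2 fold change -2.82, standard error 0.52, adjusted p = 0.0045 in edgeR). Try4 was at 78.4, 148 and 64.8 CPM in the PBS libraries and at 16.3, 25.9 and 9.09 CPM in the WGP libraries (log2 fold change -2.51, standard error 0.41, adjusted p = 0.0022 in edgeR). Try5 was at 38.7, 159.7 and 35.4 CPM in the PBS libraries and at 6.40, 14.9 and 6.79 CPM in the WGP libraries (log2 fold change -3.05, standard error 0.60, adjusted p = 0.00625 in edgeR). All 3 trypsinogens were highest in PBS replicate 2 and, among WGP libraries, in WGP replicate 2. Prss1 had 1 count in PBS replicate 2, 1 in PBS replicate 3 and 0 elsewhere, so no fold is given.

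The trypsinogen genes lie in one region of chromosome 6 and are close copies. In the annotated transcripts, 99.1% of the stretches of 75 bases (the cycles of the sequencing kit) of Prss2 were found in no other gene, against 56.1% for Try4, 66.7% for Try5 and 62.9% for Prss1. The share of Try4 stretches also found in Try5 was 34.5%. How the counting treated reads that match several genes is not given in the sources used here, so the levels of Try4, Try5 and Prss1 are uncertain. On chromosome 4, exons of Casp9 and Ctrc overlap 17.7% of the exon bases of Cela2a, and 21.0% of the Cela3b stretches were also found in Cela3a.

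Inhibitors keep trypsin and other proteases in check. Spink1, a trypsin inhibitor, was at 3.64, 10.2 and 3.98 CPM in the PBS libraries, at 0.787 CPM in WGP replicate 1 and at 0 in the other WGP libraries. Its groups did not overlap, but it was not called in edgeR (log2 fold change -4.50, standard error 1.70, adjusted p = 0.118), while DESeq2 and limma-voom called it lower. Serpini2, a serpin of the pancreas, was not called either, with 3.27 ± 1.59 CPM in PBS and 1.26 ± 1.40 CPM in WGP (adjusted p = 0.615 in edgeR).

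The zymogen granule also holds proteins that are no digestive enzymes. Zg16, a lectin of the granule membrane, was at 55.8, 130.2 and 50.1 CPM in the PBS libraries and at 10.3, 9.14 and 9.19 CPM in the WGP libraries (log2 fold change -3.04, standard error 0.36, adjusted p = 0.000301 in edgeR). Dmbt1, a scavenger receptor-like secreted protein, was at 42.1, 115 and 26.5 CPM in the PBS libraries and at 12.5, 11.6 and 9.19 CPM in the WGP libraries (log2 fold change -2.46, standard error 0.47, adjusted p = 0.0055 in edgeR). For both genes the WGP libraries lay close together and below every PBS library. Gp2, the major glycoprotein of the granule membrane, was at 22.1, 52.8 and 14.6 CPM in the PBS libraries and at 3.56, 9.60 and 4.57 CPM in the WGP libraries (log2 fold change -2.33, standard error 0.53, adjusted p = 0.0138 in edgeR). Sycn, syncollin, was at 14.1, 59.0 and 18.5 CPM in the PBS libraries and at 5.81, 4.49 and 8.97 CPM in the WGP libraries (log2 fold change -2.25, standard error 0.53, adjusted p = 0.0169 in edgeR). In Gp2 and Sycn the lowest PBS library lay less than 6 CPM above the highest WGP library.

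Reg1, a secreted lectin that rises in pancreatic injury, was at 18.6, 79.8 and 32.8 CPM in the PBS libraries and at 13.0, 15.8 and 11.5 CPM in the WGP libraries. Its PBS to WGP ratio of 3.25 was the smallest of the 21 genes (log2 fold change -1.70, standard error 0.45, adjusted p = 0.0295 in edgeR). PBS replicate 1 was almost as low as WGP replicate 2. Cuzd1, a zymogen granule protein, was not called. Only PBS replicate 2 was high, at 16.2 CPM, while PBS replicates 1 and 3 had 1.61 and 2.10 CPM, below every WGP library. Its fitted log2 fold change was -0.96 with all libraries and 0.88 without PBS replicate 2, and it was not called in either fit.

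Transcripts of the secretory route were few. Pdia2, a protein disulfide isomerase of the acinar endoplasmic reticulum, was at 0.603 ± 0.526 CPM in PBS and 0.0995 ± 0.172 CPM in WGP (adjusted p = 0.686 in edgeR). Erp27, another protein of the endoplasmic reticulum, was at 4.88 ± 2.83 CPM in PBS and 0.252 ± 0.437 CPM in WGP (adjusted p = 0.16 in edgeR). Tmed6, a member of a family of cargo receptors between endoplasmic reticulum and Golgi, was at 3.82, 4.004 and 0 CPM in the PBS libraries and at 0 in all WGP libraries. Of these 3 genes 0 were called in edgeR, against 4.96% of all genes called lower. Erp27 and Tmed6 had an unadjusted p below 0.05 in edgeR. DESeq2 called Erp27 and Tmed6 lower, against 6.71% of all genes, and limma-voom called Erp27, against 4.78%.

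The transcription factors had low levels. Bhlha15 was at 3.02, 2.95 and 6.16 CPM in the PBS libraries and at 0.950, 0.531 and 0.782 CPM in the WGP libraries (log2 fold change -2.42, standard error 0.96, adjusted p = 0.137 in edgeR). Bhlha15 was the only factor whose groups did not overlap, against 16.1% of all genes with every WGP library below, and it is also known from plasma cells. Rbpjl, the acinar partner of Ptf1a, was at 5.70, 1.46 and 0.635 CPM in the PBS libraries and at 1.41, 0 and 1.86 CPM in the WGP libraries (adjusted p = 0.69 in edgeR). Ptf1a had 24 counts in PBS replicate 2, 0.616 CPM, and 0 in the other libraries. Nr5a2 had 4 counts in PBS replicate 2, 28 in WGP replicate 2 and 0 elsewhere. Of the 4 factors 0 were called in edgeR, against 4.96% of all genes called lower, and 1, Bhlha15, had an unadjusted p below 0.05. DESeq2 called Bhlha15 lower, and limma-voom called none. Neither Ptf1a nor Nr5a2 was counted in more than 2 libraries. Exons of Ptf1aos overlap 40.4% of the exon bases of Ptf1a. The strand setting of the counting is not given, so the level of Ptf1a is uncertain.

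The aquaporins are water channels. Aqp12, a channel of acinar cells, was at 5.10, 3.13 and 2.42 CPM in the PBS libraries and at 0 in all WGP libraries. It was at least 141-fold lower in WGP against a floor of 3 counts over the group, and at least 5.36-fold against 3 times the most frequent low count (adjusted p = 0.00797 in edgeR), with 99 to 196 counts in each PBS library; its adjusted p reached 0.0483 at most over the alternatives. Aqp8 had 33 counts in PBS replicate 3 and 0 in the other libraries, and was not called (adjusted p = 0.396 in edgeR). The counts carry no molecular identifiers, so floors and intervals cover counting error only, with every read taken as a separate draw. The most frequent low count was between 18 and 39 reads, depending on the library, and the bound for Tmed6 against 3 times this count was 3.94-fold. Whether such low counts are copies of single molecules was not tested. The counts of Ptf1a and Nr5a2 and those of Aqp8 did not exceed 1.22 times the most frequent low count of their library.

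Compared per kilobase of exon, Ctrb1 was the most abundant of the 35 genes in both groups, at 601 CPM per kilobase in PBS and 130.0 in WGP. In PBS it was followed by Clps at 391, Pnlip at 277, Prss2 at 274 and Cela2a at 246 CPM per kilobase. In WGP the next were Cela2a at 42.3, Clps at 40.2, Prss2 at 38.8 and Pnlip at 33.7 CPM per kilobase. The same 5 genes led both groups, in a changed order, with SDs in PBS that exceed the steps between neighbours. The transcription factors were at most 1.16 CPM per kilobase in either group.

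The 21 genes with a mean above 10 CPM differed between the groups by similar ratios. They made up at least 97.8% of the summed acinar level in each library. Of the 21 genes 16 also had a mean above 10 CPM in WGP alone, while Try5, Pnliprp2, Zg16, Gp2 and Sycn passed this level only through PBS and so had to be lower in WGP. All 21 were called lower in WGP, which is a description of genes picked by their level. Their ratio of PBS to WGP means ran from 3.25 for Reg1 to 9.72 for Clps, with a median of 6.32, and for all 21 it lay within a factor of 2 of that median. Over the 16 genes the median ratio was 6.10, with the same lowest and highest. All 21 were highest in PBS replicate 2, which exceeded the mean of the other PBS libraries 1.86-fold for Clps, 3.03-fold at the median and 5.11-fold for Pnliprp2. PBS replicate 3 was the lowest PBS library for 18 of the 21 and PBS replicate 1 for 3. In WGP, replicate 2 was highest for 16 of the 21. Without PBS replicate 2 the median ratio was 3.74, with a range from 1.91 for Reg1 to 7.56 for Clps. Clps then lay outside a factor of 2 of the median. The ratio moved by over 1.5 times for 16 of the 21, and by less for Try4, Cela3b, Clps, Rnase1 and Zg16.

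The proportions among the genes were not fully alike in the groups. Ctrb1 made up 12.4%, 12.3% and 13.2% of the summed acinar level in the PBS libraries and 17.8%, 17.0% and 16.8% in WGP libraries. This share was higher in every WGP library, although the level of Ctrb1 was lower. Pnlip made up 13.7%, 15.5% and 11.2% in PBS libraries, against 9.25%, 12.8% and 10.6% in WGP libraries, with overlap. Clps made up 5.74%, 4.60% and 9.40% in PBS libraries, against 4.71%, 2.59% and 4.38% in WGP libraries. PBS replicate 3, the lowest PBS library for most of the genes, had the highest share of Clps. Reg1 made up 0.591%, 1.06% and 1.62% in PBS libraries, against 2.19%, 1.84% and 2.15% in WGP libraries, again higher in every WGP library. Cpa1 had one of the steadiest shares in PBS, with 7.77 ± 0.23% there and 6.64 ± 0.99% in WGP. Wilson 95% intervals of these shares reached at most 0.513 percentage points to either side. These intervals treat every read as a separate draw. They are too narrow if several reads are copies of the same molecule, which was not tested. These differences in shares were seen in the data and were not tested.

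**Figure D2:**
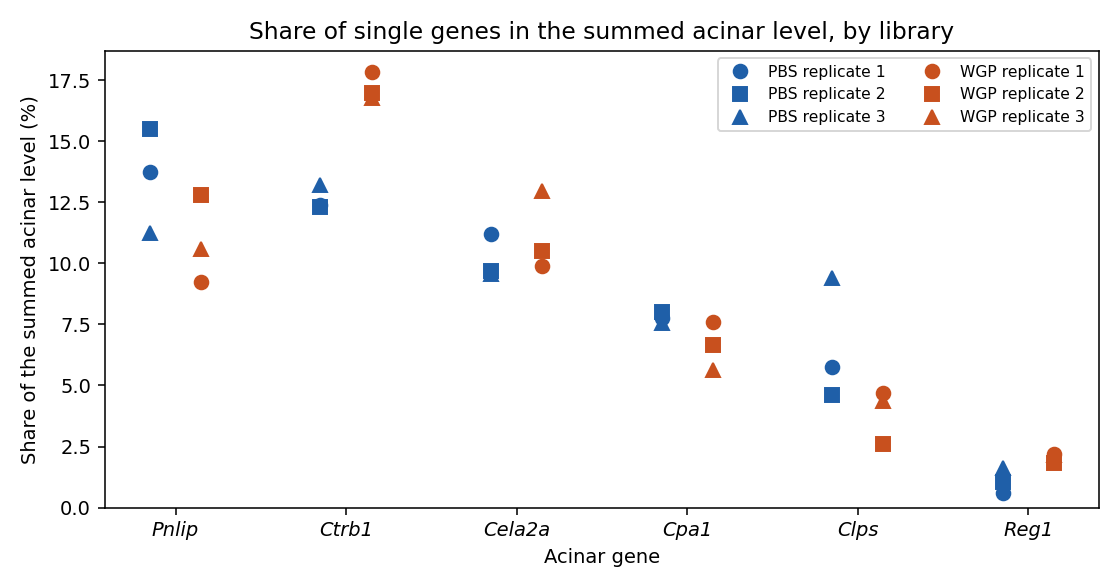
Share of single genes in the summed acinar level, in percent, for each library; PBS in blue, WGP in orange, with a marker shape for each replicate. The share of Ctrb1 lies between 12.3% and 13.2% in the PBS libraries and between 16.8% and 17.8% in WGP libraries, while the shares of Cpa1 and Cela2a overlap.

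By role, chymotrypsins and elastases made up 39.0%, 36.1% and 37.9% of the acinar level in PBS libraries, against 43.9%, 42.6% and 44.9% in WGP libraries. Carboxypeptidases made up 12.9%, 13.9% and 12.6% in PBS libraries, against 11.9%, 11.4% and 10.7% in WGP libraries. The groups did not overlap in these shares, the first higher and the second lower in WGP. Within the first role, Ctrb1 and Ctrl had higher shares in every WGP library, while the shares of Ctrc, Cela1, Cela2a and Cela3b overlapped. The single shares of Cpa1 and Cpb1 overlapped too. Shares of the same sum depend on each other, so a higher share of Ctrb1 lowers those of the other genes. Lipases with colipase made up 29.6%, 30.4% and 27.4% in PBS libraries, against 23.2%, 27.5% and 23.1% in WGP libraries, with overlap of PBS replicate 3 and WGP replicate 2. The shares of trypsinogens and of granule proteins overlapped as well. The summed level of the granule proteins was 251 ± 175 CPM in PBS and 49.9 ± 4.23 CPM in WGP. None of these differences was tested, and the shares are not corrected for gene length.

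Acinar genes outside the list were also lower in the WGP libraries in sum. Of 21 other acinar genes listed 20 were in the table and 16 were tested, of which 4 were called lower in WGP, against 4.96% of all genes tested. Of the 16 genes 8 had all WGP libraries below all PBS libraries, against 16.1%. Amy1, among these 8, passed the filter only through its PBS counts. So did Amy2a5 and Try10, whose groups overlapped, while Cela3a and Reg3g passed only through WGP. The log2 fold changes of Cela3a, Reg3b, Reg3g and Prss3 were positive, and these 4 genes were not called. The summed level of the whole list of other acinar genes was 422, 907 and 265 CPM in the PBS libraries and 66.5, 87.4 and 69.2 CPM in the WGP libraries, a ratio of 7.14, or 4.61 without PBS replicate 2. The most abundant, 2210010C04Rik, a trypsinogen-related gene, was at 233, 555 and 147 CPM in the PBS libraries and at 34.6, 57.9 and 44.4 CPM in the WGP libraries (log2 fold change -2.77, standard error 0.43, adjusted p = 0.00171 in edgeR; ratio 6.82, or 4.16 without PBS replicate 2). Pla2g1b, the pancreatic phospholipase A2, was at 77.2, 90.7 and 46.3 CPM in the PBS libraries and at 5.35, 5.91 and 1.44 CPM in the WGP libraries. Its ratio of 16.9 exceeded those of the 21 genes, a difference that was not tested (log2 fold change -4.08, standard error 0.49, adjusted p = 0.000366 in edgeR). Tff2, a trefoil peptide also made in the stomach, was called lower as well.

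Pancreatic amylase, the starch-digesting enzyme of acinar cells, was nearly without counts in those of its genes that the count table holds. Amy2b, the listed gene missing from the count table, could not be measured here. In Amy2b 78.0% of the stretches of 75 bases were found in no other gene. Amy2a2, Amy2a3 and Amy2a4 were at 0 in all libraries, Amy2a1 had 1 count, and Amy2a5 had 33 counts in PBS replicate 2 and 0 elsewhere. Stretches of 75 bases found in no other gene made up 0% of Amy2a2 and 48.8% of Amy2a5. Amy1, with 68.0% of such stretches, had 6, 39 and 100 counts in the PBS libraries and 1, 2 and 0 counts in the WGP libraries. PBS replicate 3 was its highest library, and Amy1 was not called (adjusted p = 0.233 in edgeR).

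**Figure D3:**
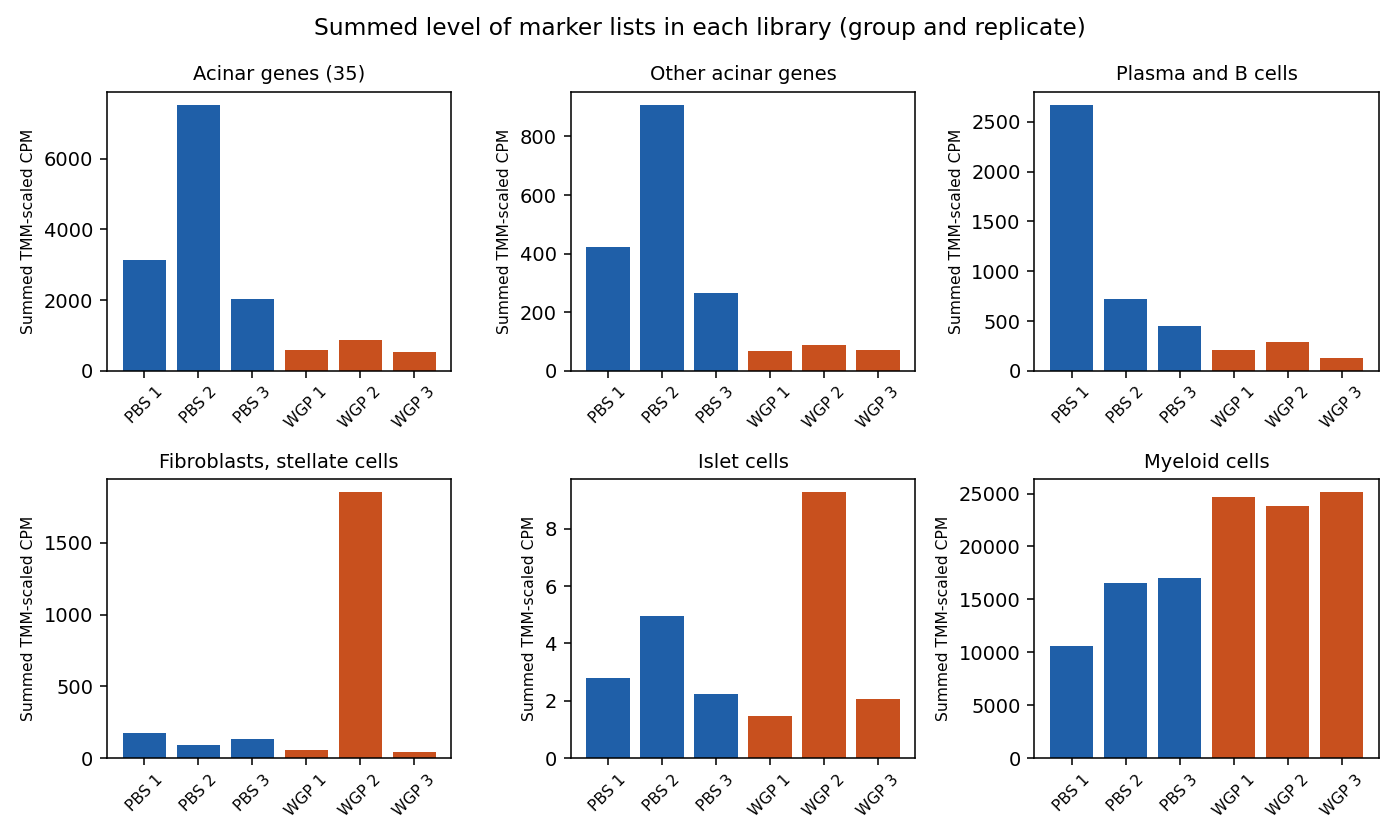
Summed level of each marker list in each library, in CPM from 0, with a scale of its own in each panel; PBS in blue, WGP in orange. The 35 acinar genes and the other acinar genes peak in PBS replicate 2, at 7518 and 907 CPM, plasma and B cell genes in PBS replicate 1 and fibroblast genes in WGP replicate 2.

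Markers of islet and duct cells had low counts. Of 17 islet markers 12 were counted in any library, and Ppy, Chga, Pcsk1, G6pc2 and Slc2a2 were at 0 in all 6. Their summed level was 2.81, 4.95 and 2.25 CPM in the PBS libraries and 1.47, 9.26 and 2.08 CPM in the WGP libraries. Sst had the highest mean, through 166 counts in WGP replicate 2, and in PBS it was Ins2. Ins1 had 30, 18 and 26 counts in PBS and 0 counts in each WGP library, at or below the most frequent low count of each library. All 11 duct markers were counted, and they summed to 26.9, 10.04 and 14.3 CPM in the PBS libraries and 8.58, 15.7 and 10.2 CPM in the WGP libraries. Krt7 had the highest mean in WGP and Muc1 in PBS. Cftr, which defines duct cells, had 26 counts in PBS replicate 3 and 0 elsewhere. Islet and duct sums overlapped between the groups. Of the 9 duct genes tested 3, Krt8, Krt18 and Muc1, had all WGP libraries below all PBS libraries, against 16.1% of all genes. Their PBS to WGP ratios were 5.61, 5.23 and 1.86. Of the 12 islet genes tested 1, Ins1, had all WGP libraries below, and it passed the filter only through PBS. No duct or islet gene was called, against 4.96% of all genes called lower. Islet sums had the acinar order within PBS, replicate 2 highest and replicate 3 lowest, and were also highest in replicate 2 within WGP, while duct sums were highest in PBS replicate 1. The part of these cells in the acinar result was not tested.

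Plasma and B cell genes were lower in WGP as well, with another order of libraries. Of 9 such genes 6 were called lower, against 4.96% of all genes tested, and 1, Sdc1, higher in WGP, against 4.53%. They summed to 2670.3, 717 and 450.4 CPM in the PBS libraries and to 212, 288 and 132 CPM in the WGP libraries, a ratio of 6.07, or 2.77 without PBS replicate 1. The gene with the highest mean in PBS was Cd79a, and in WGP it was Sdc1. Cd79a was at 686, 167 and 92.6 CPM in the PBS libraries and at 37.7, 35.4 and 24.0 CPM in the WGP libraries. The B cell genes were highest in PBS replicate 1 and the acinar genes in PBS replicate 2, while PBS replicate 3 was the lowest PBS library in both sums.

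Fibroblast and stellate genes, 10 of 10 counted, summed to 178, 92.5 and 132 CPM in the PBS libraries and to 57.4, 1849.7 and 44.5 CPM in the WGP libraries. Their most abundant gene was Col3a1, at 787 CPM in WGP replicate 2. Mesothelial genes, 4 of 4 counted and led by Upk3b, summed to 54.7 CPM in WGP replicate 2 and to at most 9.26 CPM elsewhere. Endothelial genes, 7 of 7 counted and led by Kdr in WGP and by Plvap in PBS, summed to between 13.4 and 51.8 CPM. Kdr, a receptor of vascular endothelial growth factor, was at 3.90, 7.91 and 1.73 CPM in the PBS libraries and at 21.0, 36.2 and 20.4 CPM in the WGP libraries, and was called higher (log2 fold change 2.52, adjusted p = 0.00839 in edgeR). Of the 7 endothelial genes 5 had negative log2 fold changes, against 53.2% of all genes tested. T cell genes, 5 of 5 counted and led by Cd4, which macrophages can also express, summed to between 11.0 and 41.8 CPM. Without Cd4 their sum was 1.09, 0.180 and 3.13 CPM in the PBS libraries and 5.62, 26.4 and 6.11 CPM in the WGP libraries, without overlap, and Cd8a was called higher in WGP (adjusted p = 0.0393 in edgeR). WGP replicate 2, which held the highest fibroblast and mesothelial sums, had the highest acinar sum of the WGP libraries. The part of these other cells in the acinar result was not tested.

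Some calls depended on single libraries or on the test. Without PBS replicate 2, 18 of the 22 acinar calls were kept, and Gp2, Pnliprp2, Reg1 and Sycn were not called. Without it the log2 fold change was -1.63 for Gp2, -1.66 for Pnliprp2, -1.35 for Sycn and -0.93 for Reg1, the last below 1 log2 unit in size. Without WGP replicate 1 or in limma-voom those 4 and Pnliprp1 were not called, without WGP replicate 3 Gp2, Pnliprp1, Pnliprp2 and Reg1, and without WGP replicate 2 Sycn. The log2 fold changes of these genes in those fits lay between -1.45 for Reg1 in limma-voom and -2.84 for Pnliprp2 without WGP replicate 1. DESeq2 kept the 22 calls and added Bhlha15, Erp27, Spink1 and Tmed6, and limma-voom added Erp27 and Spink1. With the presence of Y-linked transcripts as a covariate, 14 of the 22 were kept. The 8 lost were Cel, Dmbt1, Gp2, Pnliprp1, Pnliprp2, Reg1, Sycn and Try5, at log2 fold changes from -0.47 for Reg1 to -2.25 for Cel. In that fit the group difference rests on PBS replicate 1 alone among the PBS libraries.

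The 35 genes are spread over 13 chromosomes, with 7 on chromosome 6 and 6 on chromosome 7. Promoter sequences from RefSeq (GRCm38.p6) were at hand for 28 of the 35 genes, and the 250 bases before each start were searched on both strands. CACCTG and CAGCTG are forms of the E-box that basic helix-loop-helix factors such as Ptf1a bind, and TTTCCC is contained in sites of its partner Rbpjl. CACCTG was found in 16 of the 28 windows (57.1%), against 17.1% of 27025 promoters. CAGCTG was found in 4 of 28 (14.3%), against 12.8%, and TTTCCC in 9 of 28 (32.1%), against 21.9%. An E-box of either form together with TTTCCC was found in 6 of 28 (21.4%), against 5.86%. These matches describe letters, and binding was not measured.

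The windows of Ctrb1, Prss2 and Cela1 are printed as those with the highest level per kilobase in PBS among the genes whose window held both kinds of motif and whose starts in RefSeq and GENCODE lay within 20 bases. Capitals mark the letters of the searched motifs or their reverse complements. Ctrb1 is read from the minus strand of chr8:111691011-111691260, Prss2 from the plus strand of chr6:41521526-41521775 and Cela1 from the minus strand of chr15:100687921-100688170. In Ctrb1 and in Cela1 an E-box and TTTCCC stood 4 bases apart, and in Prss2 53 bases apart.
Ctrb1: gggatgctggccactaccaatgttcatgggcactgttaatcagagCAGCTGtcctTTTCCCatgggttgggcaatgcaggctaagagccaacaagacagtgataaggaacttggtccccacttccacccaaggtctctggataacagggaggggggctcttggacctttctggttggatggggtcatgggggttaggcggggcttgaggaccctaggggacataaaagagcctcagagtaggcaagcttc
Prss2: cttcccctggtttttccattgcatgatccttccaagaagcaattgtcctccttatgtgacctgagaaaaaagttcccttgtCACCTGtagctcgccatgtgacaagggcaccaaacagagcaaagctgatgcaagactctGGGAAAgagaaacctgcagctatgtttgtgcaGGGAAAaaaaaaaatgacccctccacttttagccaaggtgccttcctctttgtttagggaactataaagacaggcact
Cela1: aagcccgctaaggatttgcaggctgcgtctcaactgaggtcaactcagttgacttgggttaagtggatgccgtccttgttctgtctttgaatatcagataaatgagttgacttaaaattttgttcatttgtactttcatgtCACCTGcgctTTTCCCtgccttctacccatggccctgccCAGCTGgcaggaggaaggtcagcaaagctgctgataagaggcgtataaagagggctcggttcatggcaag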

How the data were processed

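The authors aligned single-end reads to the mouse genome (GRCm38.p6, mm10) with STAR 2.6, assigned them to Ensembl genes with HTSeq 0.10.0 and deposited the counts without normalization. The strand setting and the handling of multiply matching reads are not given in the sources used here. The table holds 21700 protein-coding genes and none of the 193 ribosomal and mitochondrial protein-coding genes named Rps, Rpl, Mrps, Mrpl or mt- in the annotation.

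Genes whose RLE-normalized counts reached 10 in total were tested in R 4.3.3 with edgeR 4.0.16 (TMM, glmQLFTest, Benjamini-Hochberg adjustment). Standard errors are fold changes on the log2 scale over the root of F. The code was tested on simulated data. Alternatives were RLE factors, library totals, DESeq2 1.42.0, limma-voom 3.58.1, other filters, all features, adjusted p alone, a replicate block, a Y-linked covariate and leaving out each library. A fit of counts divided by each library's most frequent low count, and a higher floor, were added after seeing the data. The members and lists were chosen with earlier results of these data known. Values per library are given for the 10 genes with the highest mean, all called genes, and the transcription factors and aquaporins tested; other genes were named after their values were seen. For the lowest floor 3 counts over the group were taken.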

Additional observations from a re-analysis of the deposited data

How the results depend on the processing

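The number of acinar genes called lower in WGP, 22 as reported, was 14 with the Y-linked covariate and 26 in DESeq2. Without each library in turn it lay between 18 and 23, and the number called higher stayed at 0. The replicate block also gave 22, the same genes, and 1341 called genes in all against 1369. Deviations of libraries with the same replicate number correlated at 0.00, -0.04 and 0.01. At the adjusted p alone 2071 genes were called. Without each library in turn there were between 1146 and 1396. The other acinar genes called lower, 4 as reported, were 7 with counts divided by the most frequent low count, an alternative chosen after seeing the data, and 3 to 4 without each library in turn. The causes were not tested. The summed acinar level kept its direction under each scaling and without each library, with log2 ratios from -1.96 without PBS replicate 2 to -3.01 without PBS replicate 3, against -2.67. Among 570 single-gene comparisons over 34 genes, 27 lost a call, 11 gained one and none of the called genes changed sign. Library totals alone shifted the median log2 fold change of all genes from -0.05 to -0.16 and left the 22 calls in place.

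Of the 14 acinar genes with a mean of 10 CPM or less, 1, Aqp12, was called, against 4.96% of all genes called lower, and Prss1 was not tested. The most frequent low count lay between 18 and 39 reads, depending on the library. Stretches shared with close copies limit Try4, Try5, Prss1 and the amylases of the Amy2a group. Sex by library is not stated, and Y-linked transcripts were present only in PBS replicates 2 and 3, apart from 1 count in WGP replicate 3, so sex and group cannot be fully told apart.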
